A study of Homo sapiens with 12 samples.

Results

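The calcium store of the endoplasmic reticulum was followed through 10 genes, chosen by name with earlier results of these data known. They were the release channel genes RYR2, ITPR1, ITPR2 and ITPR3 and the pump genes ATP2A2 and ATP2A3. The others were the store sensor genes STIM1 and STIM2 and the entry channel genes ORAI1 and ORAI3. These 10 of 21508 identifiers in the data were found by their Entrez Gene IDs (RYR2 is 6262 and ITPR3 is 3710), and all 10 were listed in all 12 libraries and passed the filter on low counts. The libraries were made from polyadenylated RNA of EndoC-βH1 cells, a human line of beta cells kept in culture, with 3 libraries in each of 4 groups. Cells given a negative control siRNA (also labelled scramble) were treated with either DMSO or 1-AKP, and so were cells given siRNAs against TUNAR, whose number and sequences the labels do not give. TUNAR was described as a long noncoding RNA, and 1-AKP is an inhibitor of the kinase GSK3. RNA counts do not show whether TUNAR is also translated. All cells were transfected with a lipid reagent and 2 days later received 1-AKP at 5 µM or its solvent for 24 hours. Replicates 1 and 2 of each group were at passage 74 and replicate 3 at passage 75. All come from a single cell line, and nothing in the labels says that the 3 replicates were separate cultures, so p-values measure the spread between these samples only.

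The endoplasmic reticulum is the main releasable calcium store of a beta cell. SERCA pumps fill it, and IP3 receptors and ryanodine receptors release from it, the former when IP3 is made by phospholipase C and the latter when cytosolic calcium itself rises. When the store empties, STIM proteins in its membrane sense the loss and open ORAI channels in the plasma membrane, through which calcium enters and the store refills. In beta cells these steps shape the calcium signal that follows glucose and hormones, and thus insulin release.

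Libraries held between 15653786 and 15986834 expected counts, and 15990 genes were tested. The 12 beta-cell markers were present in every library, INS at 20680 to 28890 FPKM. Some varied more between libraries: G6PC2 ran from 2.12 to 71.8 FPKM, IAPP from 21.1 to 69.5 and MAFA from 15.5 to 45.7. The steadiest was CHGA, at 5052 to 5759. The acinar markers PRSS1 and CELA3A, the mesenchymal marker LUM and the islet hormone gene PPY were listed in none of the 12 libraries. They were taken as 0, so their 0 was filled in rather than measured. Summed FPKM of the 7 duct and acinar markers ran from 49.0 to 59.1 with negative siRNA and from 50.7 to 64.7 with TUNAR siRNAs, nearly all of it from KRT19 and CPA1. The 7 markers of other islet cells summed to between 16.9 and 56.3 FPKM with negative siRNA and between 16.9 and 63.4 with TUNAR siRNAs. Among them SST ran from 5.89 to 52.9 FPKM over the 12 libraries and IRX2 from 8.03 to 12.4. The 7 mesenchymal, endothelial and blood markers summed to between 15.7 and 30.5 with negative siRNA and between 12.9 and 23.2 with TUNAR siRNAs. Of these, CD68 ran from 11.2 to 28.7 FPKM over the 12 libraries. The part of these markers in the results was not tested. In bulk RNA, fewer cells of a type and less RNA per cell cannot be told apart.

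TUNAR itself was lower with its siRNAs. It stood at 14.4, 19.9 and 17.7 CPM (expected counts scaled to the TMM-adjusted library total) in replicates 1, 2 and 3 of negative siRNA with DMSO and at 3.83, 7.20 and 8.09 with TUNAR siRNAs. In 1-AKP it stood at 27.9, 31.0 and 30.8 against 6.95, 10.5 and 13.6. The groups did not overlap in either treatment. Averaged over treatments TUNAR fell by 1.49 on the log2 scale (SE 0.18, adjusted p = 0.0101, edgeR's quasi-likelihood test with Benjamini-Hochberg adjustment over all genes), while within DMSO and within 1-AKP alone the adjusted p was 0.248 and 0.159, and 0.00248 and 0.000674 with replicate number as a block in the fit.

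Per length, the pumps were by far the most abundant members and RYR2 the least. In control cells (negative siRNA with DMSO) ATP2A3, which encodes SERCA3, stood at 297 ± 12.2 FPKM (fragments scaled by gene length and library total, as deposited; mean ± SD, n = 3) and ATP2A2, which encodes SERCA2, at 136 ± 8.27 FPKM. ITPR3 followed at 22.5 ± 0.486 FPKM and STIM1 at 18.5 ± 2.32. ORAI1, the pore subunit that STIM1 opens, stood at 11.5 ± 0.710 FPKM, ORAI3, its relative, at 9.96 ± 1.42, and STIM2, the sensor of smaller store losses, at 8.83 ± 0.455. The 3 remaining release channels were lowest, with ITPR2 at 4.30 ± 0.303 FPKM, ITPR1 at 2.66 ± 0.333 and RYR2 at 1.28 ± 0.273, the last above 34.6% of the genes listed. Over the 12 libraries the FPKM ranges of neighbours in this order overlapped for STIM1 and ITPR3 (16.2 to 22.1 and 22.0 to 30.4), for ORAI1 and ORAI3 (10.1 to 12.3 and 6.08 to 11.3) and for ORAI3 and STIM2 (6.08 to 11.3 and 7.61 to 9.60). The other neighbours were apart in every library, RYR2 between 1.00 and 2.17 FPKM lying wholly below ITPR1 between 2.28 and 3.01.

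**Figure D1:**
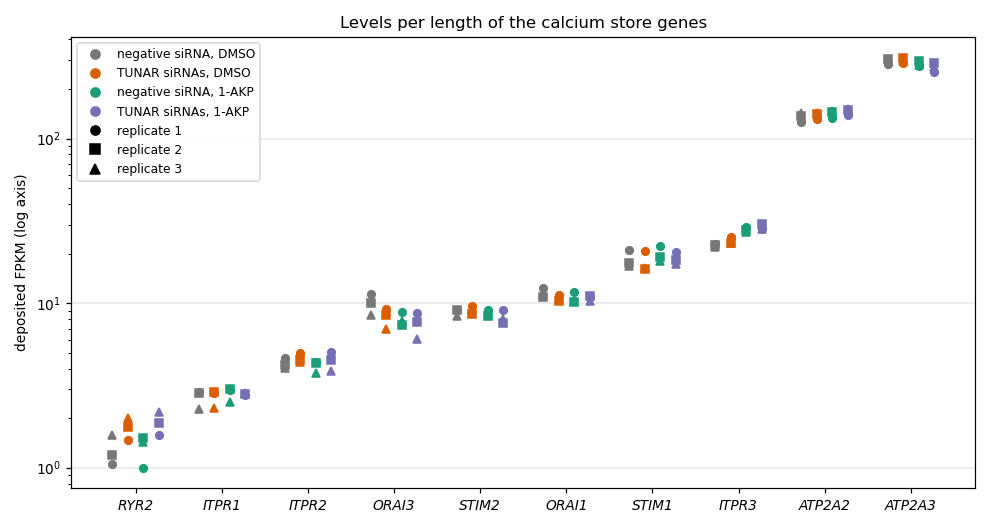
Deposited FPKM (log axis) of the 10 calcium store genes in each of the 12 libraries, ordered by mean level, with color for the group and shape for the replicate number. ATP2A3 is highest, near 297 FPKM in control cells, and RYR2 lowest, near 1.28.

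Within families, ITPR3 made up 76.4% ± 1.16 of the summed IP3 receptor FPKM in control cells, and ATP2A3 was 2.19 ± 0.0478 times ATP2A2. RYR2 was 4.17% ± 1.00 of the summed FPKM of the 4 release channels. Of the paralogues outside the member list, ORAI2 was measured at 223 ± 16.7 CPM and ATP2A1, the skeletal muscle pump, at 1.60 ± 0.403 CPM in control cells, while RYR1 and RYR3 did not pass the filter on low counts.

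RYR2, the ryanodine receptor best known from heart muscle and the calcium-gated release channel of the store, was higher with TUNAR siRNAs in each of the 6 pairs of same-numbered libraries. In DMSO it stood at 17.1, 19.7 and 26.0 CPM in replicates 1, 2 and 3 with negative siRNA and at 24.2, 29.3 and 33.3 with TUNAR siRNAs. In 1-AKP the values were 16.6, 25.2 and 24.1 against 26.6, 31.1 and 36.2. Replicate 1 was the lowest library of all 4 groups, and the siRNA groups overlapped in DMSO, where the highest control exceeded the lowest TUNAR siRNA library, but not in 1-AKP. These levels rest on 262 to 571 expected counts per library over a deposited transcript length of 16365 bases. The log2 ratios within pairs were 0.50, 0.57 and 0.36 in DMSO and 0.68, 0.30 and 0.59 in 1-AKP.

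Whether RYR2 passed the test depended on how the replicate numbers were treated. With 4 group means and no block, the DMSO libraries gave a log2 fold change of 0.47 (adjusted p = 0.999, SE 0.195) and the 1-AKP libraries one of 0.51 (adjusted p = 0.944, SE 0.194). Averaged over treatments it was 0.49 (SE 0.137, unadjusted p = 0.0043, adjusted p = 0.231), a 1.40-fold difference. With replicate number as a block, which the siRNA comparisons met the rule for, RYR2 rose by 0.47 with DMSO (adjusted p = 8.22e-05, SE 0.0727), by 0.51 with 1-AKP (adjusted p = 2.18e-05, SE 0.0716) and by 0.49 averaged (adjusted p = 1.72e-08, SE 0.051). Both fits gave about the same size, set against a different spread. A block within each treatment gave adjusted p-values of 8.83e-05 and 2.81e-05. Under the block RYR2 was called whichever replicate number was left out, at an adjusted p of at most 0.00942 in DMSO and 0.00605 in 1-AKP. Without the block, the averaged call was made by DESeq2 (adjusted p = 0.0352) and by edgeR without replicate 1 (0.0196), and not without replicate 2 (1.00) or replicate 3 (0.637). The siRNA effect on RYR2 did not differ detectably between DMSO and 1-AKP (difference 0.05, 95% interval -0.56 to 0.65, adjusted p = 1.00).

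**Figure D2:**
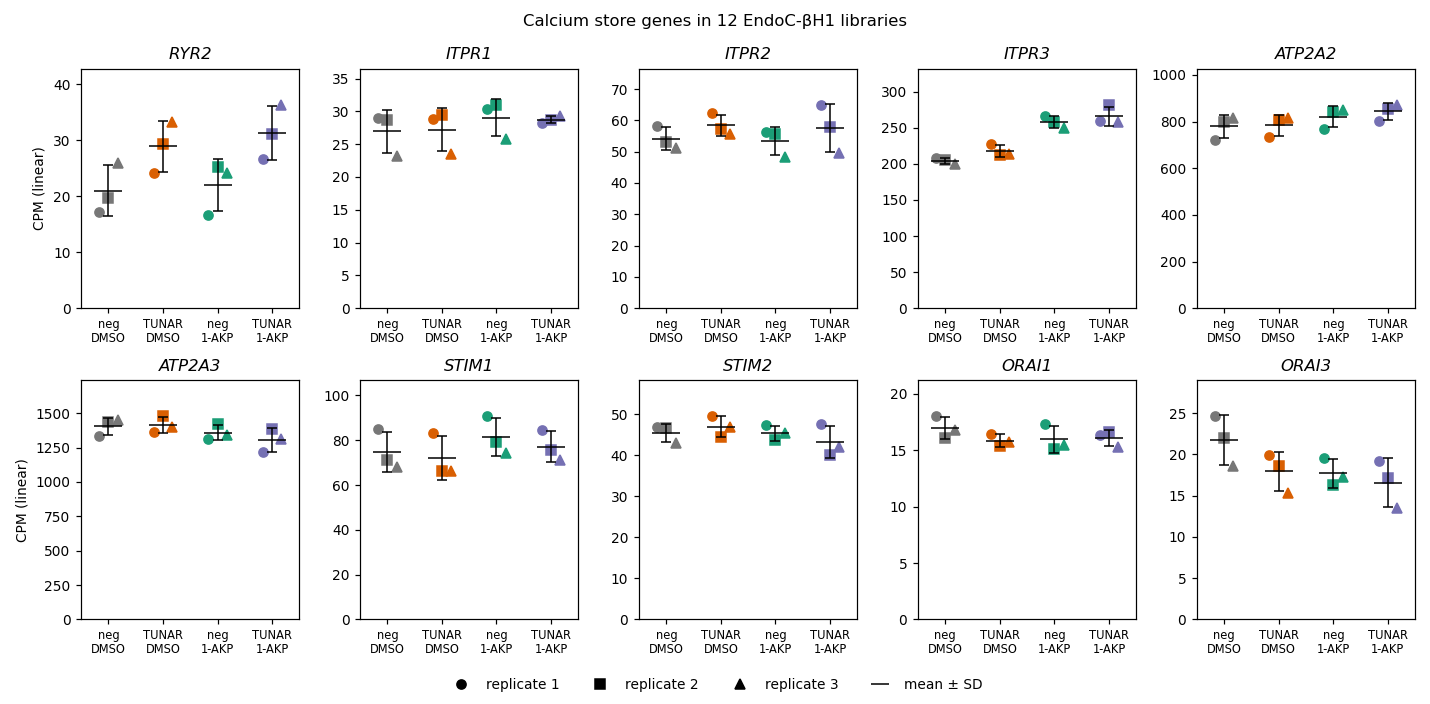
CPM (linear axes from 0) of each calcium store gene in the 4 groups, 1 point per library with shape for the replicate number, and a bar for the mean ± SD of 3 libraries. RYR2 lies between 16.6 and 26.0 with negative siRNA and between 24.2 and 36.2 with TUNAR siRNAs, and ITPR3 between 200 and 228 in DMSO and between 249 and 281 in 1-AKP.

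RYR2 is among the longest transcripts measured, and long transcripts differed as a class. Of all tested genes, 32 were longer. The 345 tested genes of 10000 bases or more had a median log2 difference with TUNAR siRNAs of 0.04 in DMSO and 0.05 in 1-AKP, against -0.00 for shorter genes, and 6 and 4 of them reached the value of RYR2, as did 298 and 248 of all 15990 genes. In 1-AKP their median difference was -0.08 with either siRNA. With each library's trend on gene length taken out, RYR2 stood at 0.42 in DMSO and 0.46 in 1-AKP, with adjusted p-values of 0.000248 and 6.86e-05 under the block. Replicate 1 was lower by 0.42 for RYR2 than the mean of replicates 2 and 3 on the log2 scale, averaged over the 4 groups, and the median of the long genes in the same contrast was -0.04.

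The other 3 release channels moved less with the siRNAs. ITPR2, an IP3 receptor of high affinity for IP3, stood at 58.1, 53.1 and 51.3 CPM in control cells and 62.3, 57.3 and 55.7 with TUNAR siRNAs in DMSO, and at 56.1, 55.7 and 48.2 against 64.9, 58.0 and 49.7 in 1-AKP. It was higher in all 6 pairs with groups that overlapped, by 0.11 in each treatment (adjusted p = 1.00 in both), and averaged under the block its rise of 0.11 had an adjusted p of 0.0462. That call was not made without replicate 1 (0.260), replicate 2 (0.126) or replicate 3 (0.102), nor with the length trend taken out (0.259). ITPR1, the receptor best known from neurons, was between 23.2 and 29.4 CPM in DMSO and between 25.8 and 31.0 in 1-AKP, with siRNA differences of 0.02 and -0.02. ITPR3 was higher by 0.09 in DMSO with groups that did not overlap (200 to 207 CPM against 212 to 228) and by 0.05 in 1-AKP, and was not called (adjusted p = 1.00 in both, 0.160 and 0.602 with the block).

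ORAI3 was the member with the largest difference in the other direction. It stood at 24.6, 22.0 and 18.6 CPM in control cells and at 19.99, 18.6 and 15.4 with TUNAR siRNAs in DMSO, and at 19.6, 16.3 and 17.2 against 19.2, 17.1 and 13.5 in 1-AKP. The groups overlapped in both treatments, and 5 of 6 pairs were lower. The log2 difference was -0.27 with DMSO and -0.09 with 1-AKP (adjusted p = 1.00 for both, SE 0.144 and 0.147). With the block ORAI3 fell in DMSO (adjusted p = 0.0396) and averaged over treatments (by 0.18, adjusted p = 0.0294), and not in 1-AKP (0.673). Both calls were lost whichever replicate number was left out: without numbers 1, 2 and 3 the adjusted p was 0.196, 0.197 and 0.181 in DMSO and 0.0940, 0.0537 and 0.336 averaged. ORAI3 was also the member whose reads were estimated rather than whole, with fractional expected counts in 12 of 12 libraries, against none for the other 9, so part of its reads were shared with other sequences.

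The remaining members lay close to 0 in the siRNA comparisons. STIM1, the main store sensor, was lower in all 6 pairs, by 0.06 in DMSO and 0.08 in 1-AKP on the log2 scale, while STIM2 stood at 0.04 and -0.07 and ORAI1 at -0.10 and 0.01. ATP2A2 stood at 0.01 and 0.04, and ATP2A3 at 0.01 and -0.06. None of these 5 was called with or without the block, and their 95% intervals without the block lay between -0.33 and 0.20. These intervals do not show that the genes were unaffected; they bound what 3 libraries against 3 could show.

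Of the 10 members, 0 were called without the block in DMSO, where 0.0125% of all tested genes were, 0 in 1-AKP (0%), 0 averaged (0.175%), and 0 for the difference between both treatments in the siRNA effect (0%). The unadjusted p was under 0.05 for 1 member, RYR2, in each of the first 3, and for 0 in the last, beside 776, 743, 1392 and 170 genes in all. DESeq2 called 0, 0 and 1 in the first 3. With the block, 1 member was called higher and 1 lower in DMSO (background 1.71% and 1.34%), 1 higher and 0 lower in 1-AKP (1.44% and 1.33%), and 2 higher and 1 lower averaged (4.4% and 4.18%). TUNAR siRNA libraries were higher in all 6 pairs for 2 of 10 members (6.66% of all genes) and lower in all 6 for 1 (6.8%). Groups lay apart with the TUNAR siRNAs higher for 1 of 10 in DMSO (5.3%) and 1 of 10 in 1-AKP (4.5%). The members' median log2 difference was 0.01 in DMSO and -0.00 in 1-AKP, and that of all genes -0.00 in both. Because the members were chosen with earlier results of these data known, the shares of all genes are a description and no independent test.

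**Figure D3:**
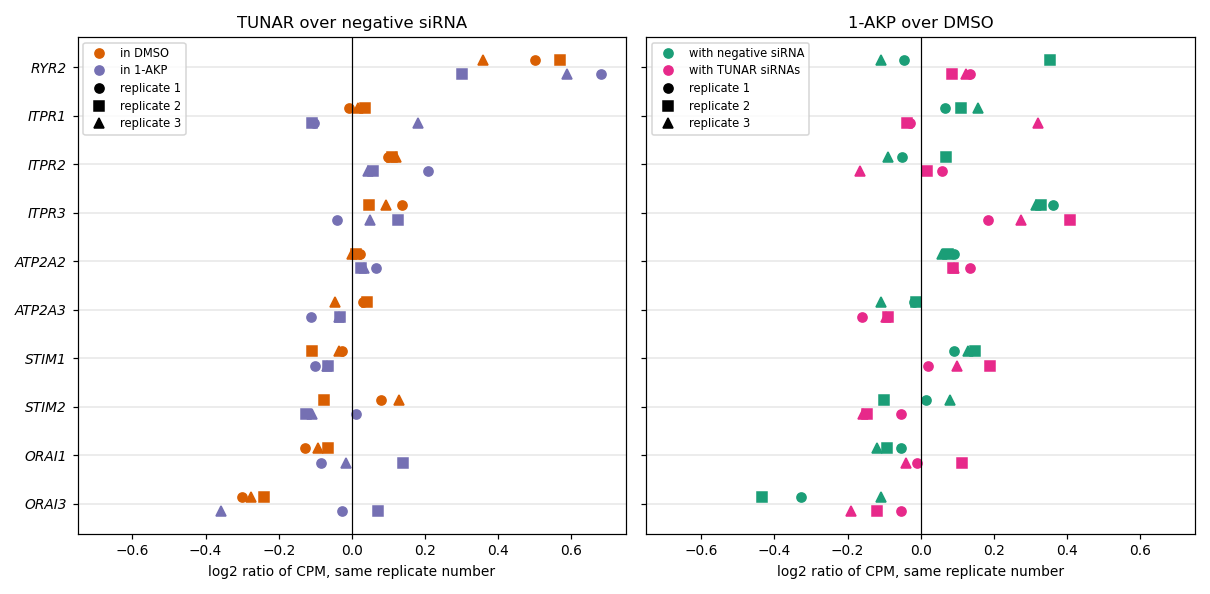
Log2 ratio of CPM between libraries of the same replicate number, for TUNAR over negative siRNA (left) and 1-AKP over DMSO (right), with 6 pairs per gene. All 6 RYR2 ratios on the left lie between 0.30 and 0.68, and all 6 ITPR3 ratios on the right between 0.18 and 0.41.

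1-AKP raised ITPR3, the IP3 receptor that made up most of the family in these cells. With negative siRNA it went from 207, 205 and 200 CPM in replicates 1, 2 and 3 of DMSO to 266, 258 and 249 in 1-AKP. With TUNAR siRNAs it went from 228, 212 and 213 to 259, 281 and 258. Every 1-AKP library was above every DMSO library, in both siRNA backgrounds, and all 6 pairs were higher. ITPR3 rose by 0.34 on the log2 scale with negative siRNA (SE 0.0479, adjusted p = 0.00173), by 0.29 with TUNAR siRNAs (SE 0.0478, adjusted p = 0.00391) and by 0.31 averaged (SE 0.0338, adjusted p = 6.72e-05), a 1.24-fold rise. With 2 libraries a group, the separate calls were lost without replicate 2 (adjusted p = 0.152 and 0.266) and without replicate 3 (0.0896 and 0.132), at a size of at least 0.23. The averaged call held whichever replicate number was left out, at an adjusted p of at most 0.0282.

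The make-up of the IP3 receptor family moved with it. ITPR3 went from 76.4% ± 1.16 to 80.0% ± 1.03 of summed IP3 receptor FPKM with negative siRNA, and from 76.6% ± 1.00 to 79.9% ± 1.38 with TUNAR siRNAs. Library values were 75.4, 76.2 and 77.7% against 79.8, 79.1 and 81.2%, and 76.4, 75.8 and 77.8% against 78.3, 80.7 and 80.7%, so 1-AKP libraries were above DMSO libraries in both backgrounds. This share is a ratio within each library and shows unequal change among the 3 genes; it was not tested on its own. Summed IP3 receptor FPKM went from 29.5 ± 1.08 to 35.0 ± 1.58 and from 31.2 ± 1.55 to 36.1 ± 1.52. RYR2 as a share of the 4 release channels was 4.17% ± 1.00 in control cells, 5.34% ± 1.01 with TUNAR siRNAs, 3.64% ± 0.838 with 1-AKP and 4.94% ± 0.849 with both.

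RYR2 was not called in 1-AKP. Its difference was 0.07 with negative siRNA (95% interval -0.37 to 0.50, adjusted p = 0.898) and 0.11 with TUNAR siRNAs (-0.30 to 0.53, adjusted p = 0.809), with 4 of 6 pairs higher. Averaged over siRNAs it was 0.09 without the block (adjusted p = 0.713) and 0.09 with it (adjusted p = 0.159). With the length trend taken out and the replicate block together, RYR2 stood at 0.19 averaged over siRNAs (adjusted p = 0.00204). Removal of the length trend was chosen after seeing the data, and the block is only an alternative in 1-AKP. With negative and TUNAR siRNAs, ITPR1 stood at 0.11 and 0.08 and ITPR2 at -0.02 and -0.02 without the block, and neither was called.

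The pumps stood on opposite sides of 0 in 1-AKP, and neither passed the test in the fit without a replicate block. ATP2A2 was at 722, 799 and 817 CPM with negative siRNA in DMSO and 768, 841 and 850 in 1-AKP, and at 733, 805 and 817 against 804, 856 and 871 with TUNAR siRNAs. ATP2A3 was at 1332, 1434 and 1449 against 1315, 1420 and 1344, and at 1361, 1477 and 1402 against 1218, 1388 and 1312. ATP2A2 was higher in 6 of 6 pairs (0.07 and 0.10, adjusted p = 0.565 and 0.367) and ATP2A3 lower in 6 of 6 (-0.05 and -0.11, adjusted p = 0.704 and 0.253), with groups that overlapped for both genes. The FPKM ratio of ATP2A3 to ATP2A2 was 2.24, 2.20 and 2.14 in control cells, 2.20, 2.21 and 2.05 with TUNAR siRNAs, 2.06, 2.05 and 1.89 with 1-AKP and 1.83, 1.94 and 1.81 with both. Each 1-AKP library had a lower ratio than each DMSO library of the same siRNA. The deposited length of ATP2A2, which the FPKM are divided by, varied between libraries from 5609 to 5795 bases with the estimated mix of its 2 transcripts.

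Of the members of store-operated entry, STIM1, STIM2, ORAI1 and ORAI3, none was called in 1-AKP in the same fit. STIM1 was at 85.1, 71.4 and 68.0 CPM with negative siRNA in DMSO and 90.7, 79.1 and 74.4 in 1-AKP, and at 83.5, 66.2 and 66.3 against 84.6, 75.6 and 71.0 with TUNAR siRNAs. It was higher in 6 of 6 pairs, by 0.12 and 0.10 (adjusted p = 0.624 and 0.704). ORAI3 was lower in 6 of 6 pairs, by 0.30 with negative siRNA (SE 0.144, adjusted p = 0.268) and 0.12 with TUNAR siRNAs (adjusted p = 0.727) on the log2 scale. Its control library 1, at 24.6 CPM, was the highest of the 12. STIM2 stood at -0.00 and -0.12 and ORAI1 at -0.09 and 0.02.

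In 1-AKP, 1 of 10 members was called higher with negative siRNA, where 3.54% of all genes were, and 0 lower (3.76%). With TUNAR siRNAs 1 was higher (3.72%) and 0 lower (3.79%), and averaged 1 was higher (9.97%) and 0 lower (9.25%). Groups lay apart with 1-AKP higher for 1 of 10 with negative siRNA (13.4%) and 1 of 10 with TUNAR siRNAs (12.1%). All 6 pairs were higher for 3 of 10 members (18.9%) and lower for 2 (17.2%). The members' median difference was 0.03 and 0.05, and that of all genes -0.00 and -0.00. The siRNA comparisons and the 1-AKP comparisons share libraries, so their values for the members are set side by side and not correlated.

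**Figure D4:**
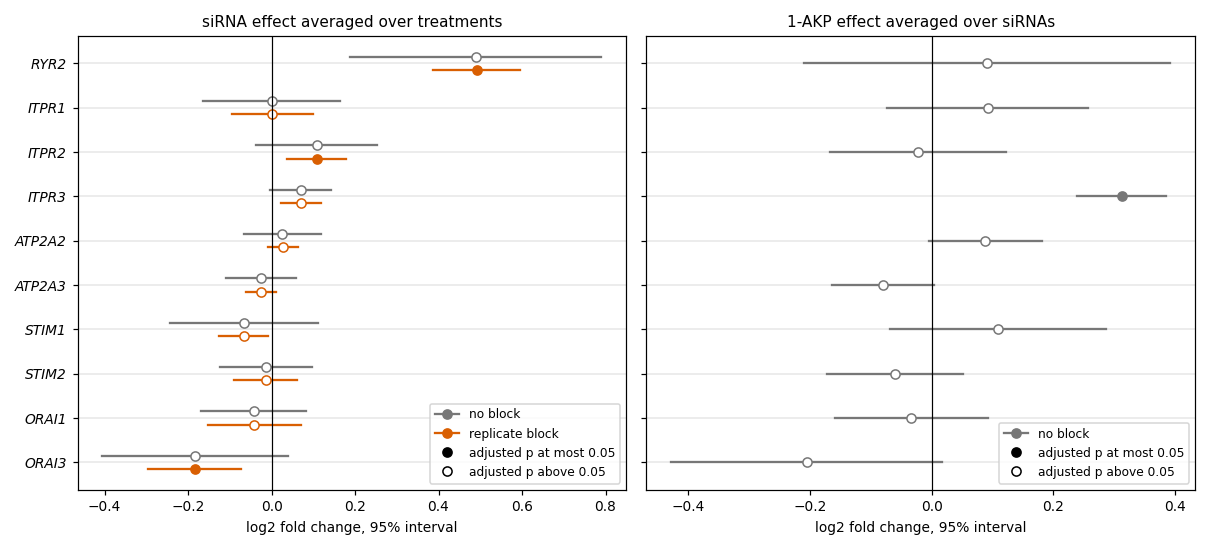
Log2 fold change with its 95% interval for each calcium store gene, for TUNAR siRNAs averaged over treatments (left, without and with the replicate block) and for 1-AKP averaged over siRNAs (right, without the block). Filled points have an adjusted p of at most 0.05: RYR2 at 0.49, ITPR2 at 0.11 and ORAI3 at -0.18 with the block on the left, and ITPR3 at 0.31 on the right.

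Much of the spread of the members within a group followed the replicate number. Replicate 1 was the lowest library of all 4 groups for RYR2, ATP2A2 and ATP2A3 (3 of 10 members, against 17.1% of all genes) and the highest of all 4 for ITPR2, STIM1, STIM2 and ORAI3 (4 of 10, against 16.2%). The mean log2 difference of replicate 1 from replicates 2 and 3 was -0.42 for RYR2, -0.14 for ATP2A2 and -0.10 for ATP2A3, and 0.27 for STIM1 and for ORAI3. For RYR2 this spread was close in size to its siRNA difference. Across the 12 libraries, log2 CPM of RYR2 correlated with that of ATP2A2 at r = 0.695 and of ORAI3 at r = -0.822, and that of ORAI1 with ORAI3 at r = 0.712. These correlations describe 12 libraries that share groups and replicate numbers.

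The genes whose levels were most like RYR2 over the 12 libraries, among 13761 genes whose mean log2 CPM reached 1, were HERC2 (r = 0.952), VPS13C (0.944), KRT19 (0.932), PRRC2C (0.929) and RDX (0.927). Most unlike were CCDC25 and GOLGA1 (-0.952 each), C6orf89 (-0.941), COQ5 (-0.930) and CD46 (-0.927). HERC2, VPS13C and PRRC2C have deposited lengths of 15340, 13403 and 10394 bases, while KRT19, a duct marker in the list above, has 1490. These genes were picked over the same libraries in which RYR2 was higher in 6 of 6 siRNA pairs, so their directions follow largely from the choice: the 5 alike were higher with TUNAR siRNAs in 6 of 6 pairs and the 5 unlike lower in 6 of 6. HERC2 differed by 0.15 and 0.16 on the log2 scale in DMSO and 1-AKP and KRT19 by 0.21 and 0.14, smaller than RYR2.

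Among other genes of the calcium store pathway, a list of 142 entries, 118 entries were tested. ERLN was on the list under both ERLN and SMIM6, and both entries are counted. Averaged over siRNAs, 1-AKP changed 31 of the 118: 22 rose, beside 9.97% of all genes, and 9 fell, beside 9.25%. With negative siRNA alone 12 rose and 4 fell (3.54% and 3.76% of all genes), and with TUNAR siRNAs 12 rose and 6 fell (3.72% and 3.79%). Their median log2 difference was 0.04 averaged, against -0.00 for all genes. The count of 31 was 45 without replicate 1, 9 without replicate 2 and 12 without replicate 3. The pathway genes named for 1-AKP were called in the fit averaged over siRNAs, and their sizes are log2 fold changes from it.

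Of the calcium-binding proteins inside the store, 8 of 13 tested rose and 0 fell. Beside this and the other role counts stand the 9.97% of all genes that rose and the 9.25% that fell. CANX, the membrane-bound lectin chaperone calnexin, rose by 0.33 (adjusted p = 7.48e-06) and stood at 1144 ± 33.2 CPM in DMSO and 1437 ± 55.4 in 1-AKP with negative siRNA, and CALU, which encodes calumenin, rose by 0.30. PDIA4, a disulfide isomerase, rose by 0.20. Of 11 genes tied to calcium leak from the store, 6 rose, among them SEC61A1, the pore of the protein translocon, by 0.29 and GRINA by 0.20. The plasma membrane pump ATP2B4, which exports calcium, fell by 0.67 from 58.4 ± 4.57 to 37.5 ± 5.34 CPM with negative siRNA, the only call among 10 export genes tested. Among calcium-activated effectors NFATC4, a transcription factor activated by calcineurin, fell by 0.91, PPP3CA, a catalytic subunit of calcineurin, fell by 0.32 and RCAN2, a calcineurin regulator, rose by 0.56, 3 called of 15. NFATC4 was low, at 5.27 ± 0.430 CPM in control cells. MCOLN3, a lysosomal cation channel, rose by 0.27.

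Of the mitochondrial list VDAC2 (0.24), VDAC1 (0.20) and SMDT1 (0.13), an outer membrane pore pair and a small subunit of the uniporter complex, rose, 3 of 11. Of the 18 partners of release channels tested, FKBP1A, which binds ryanodine receptors, rose by 0.16, and SRI, sorcin, and PRKAR1A, a regulatory subunit of protein kinase A, fell by 0.24 and 0.09. The thioredoxin-like pump partners TMX2 (0.19) and TMX4 (-0.14) went in opposite directions. PLCB4 and PLCB3, which make IP3, fell by 0.35 and 0.18, the 2 called of 14, and HOMER2, a scaffold of store-operated entry, rose by 0.27. Of all genes, 9.97% rose and 9.25% fell in this fit. Calls among effectors, partners of release channels and IP3 formation genes were about as frequent as among all genes. Of these named genes, RCAN2, NFATC4, PPP3CA, SEC61A1, MCOLN3, CANX, CALU, VDAC2 and ATP2B4 were called whichever replicate number was left out. The others lost the call when at least 1 of the numbers was left out.

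**Figure D5:**
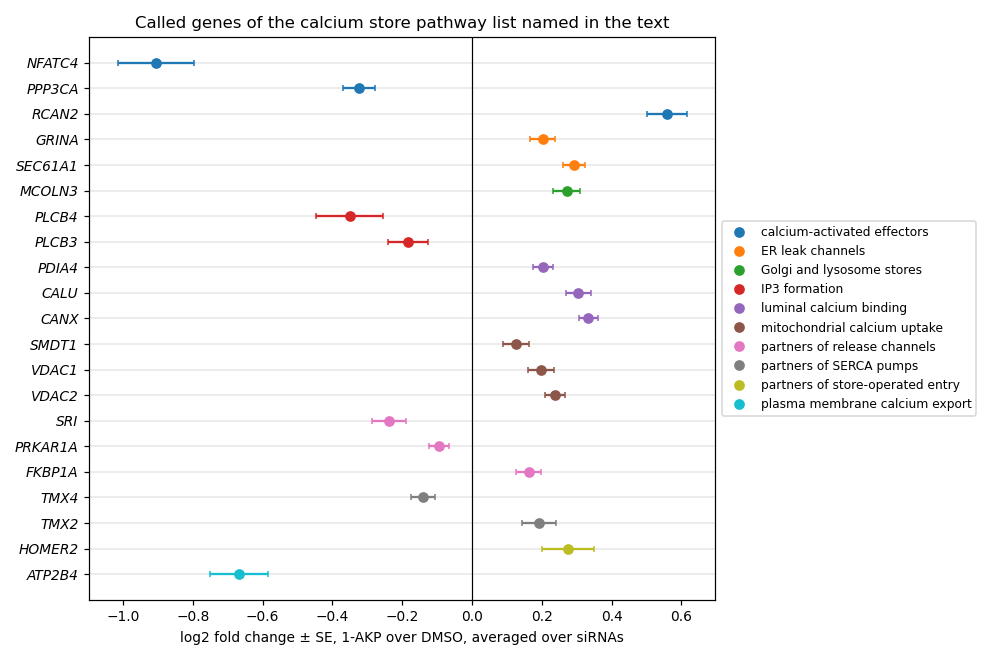
Log2 fold change ± SE in 1-AKP over DMSO, averaged over siRNAs, of called genes of the calcium store pathway list named in the text, up to 3 for each role (color). NFATC4 at -0.91 and ATP2B4 at -0.67 are the furthest below 0 and RCAN2 at 0.56 the furthest above.

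With TUNAR siRNAs, 0 of the 118 pathway entries were called in either treatment without the block. Averaged over treatments 0 rose and 2 fell, beside 0.175% of all genes called. These were ERLIN2, which takes part in the degradation of activated IP3 receptors, by 0.41 (adjusted p = 0.00447), and SDF4, a calcium-binding protein of the secretory pathway, by 0.30 (adjusted p = 0.0298). ERLIN2 stood at 66.8, 64.3 and 60.2 CPM in replicates 1, 2 and 3 of control cells and 51.9, 47.1 and 48.3 with TUNAR siRNAs in DMSO, with groups apart. Neither call was made without replicate 2 or replicate 3. The count of 2 was 7 with DESeq2 and without replicate 1, and 8 with passage as a covariate.

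With the replicate block, 14 of the 118 pathway entries rose with TUNAR siRNAs and 8 fell averaged over treatments, beside 4.4% and 4.18% of all genes. In each treatment alone 7 rose and 3 fell (1.71% and 1.34% of all genes in DMSO, 1.44% and 1.33% in 1-AKP). In the store lumen CALR, calreticulin, fell by 0.14 (adjusted p = 4.32e-06) while PDIA3 and PDIA4 rose by 0.13 and 0.15. PKD2, a cation channel of the endoplasmic reticulum and cilium, rose by 0.18 and TMEM178B by 0.16. RCAN2 rose by 0.28 and SLC8A2, a sodium-calcium exchanger, by 0.37. ITPKC and ITPKA, kinases that use up IP3, fell by 0.24 and 0.38 and PLCB4, which makes it, rose by 0.15. ITPKA was low, at 4.83 ± 1.55 CPM in control cells, and its call was lost whichever replicate number was left out. Without the block the adjusted p was 0.147 for ITPKC, 0.529 for ITPKA and 0.775 for PLCB4. Whether IP3 itself changed was not tested. Of the 14 IP3 formation genes tested 2 rose and 3 fell in all; the other two, singled out after their values were seen, were INPP5A, an IP3 phosphatase, which rose by 0.28, and PLCB3, which makes IP3 and fell by 0.20. CAMK2B (0.17), HOMER2 (0.19), SARAF (0.07), ATP2B1 (0.08) and RCAN3 (-0.11) were also called. Of these genes and ERLIN2, 16 in all with INPP5A and PLCB3 set aside, RCAN2, PKD2, CALR, PDIA3, PDIA4, ERLIN2 and TMEM178B were called whichever replicate number was left out, and 9 were not. The block count of 22 was 12, 13 and 15 without replicates 1, 2 and 3.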

How the data were processed

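The deposited values, per the file headers, are the expected count of a gene in a library, which the authors estimated and did not normalise, and its FPKM, scaled by gene length and library total. The deposited table also gives gene length in bases, another unit. The submitters' processing notes name RSEM, Bowtie, BWA, GRCh37 and hg19, without versions or roles. Per the labels' protocols, polyadenylated RNA was primed with random hexamers; strand marking is not stated, so overlapping antisense reads cannot be separated. Of 21508 identifiers 21386 matched a current symbol; genes not listed in a library were taken as 0. Total expected counts ran from 15653786 to 15986834; expected counts were rounded.

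Genes were kept by filterByExpr (minimum count 10, minimum total 15), leaving 15990. All 12 libraries were fitted with 4 group means in edgeR 4.0.16 (R 4.3.3) with TMM factors of 0.990 to 1.014 and tested by its quasi-likelihood test with Benjamini-Hochberg adjustment over all genes, threshold 0.05; the script was tested on simulated data. The biological coefficient of variation was 8.74% (8 residual degrees of freedom), and 2.86% (6) with replicate number as a block. Deviations from group means of same-numbered libraries correlated over genes at 0.376, 0.178 and 0.217 in the siRNA comparison in DMSO and 0.416, 0.162 and 0.286 in 1-AKP, all over 0.1, so the block is given beside siRNA results; in the 1-AKP comparisons some did not pass (lowest 0.0634), and the block is given only among alternatives. What a replicate number marks is not in the labels. Libraries of a group were not copies (chi-square per degree of freedom 2.37 to 11.9).

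Members and lists were chosen with earlier results of these data known. Beside members and TUNAR, the rule named up to 3 called pathway genes a role, lowest p first, and the 5 genes most and least correlated with RYR2 (log2 CPM, prior count 2). A single pathway gene that the rule would name is not reported here. Alternatives were the block, DESeq2 1.42.0, library size scaling, no filter, passage, only the compared groups, limma 3.58.1 on log2 FPKM with pseudocounts 0.1 and 1 (mean FPKM at least 0.1), and libraries left out. Chosen after seeing the data were a block within treatment, removal of each library's trend on gene length, and the rerun of pathway genes.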

Additional observations from a re-analysis of the deposited data

How the results depend on the processing

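Changes in log2 are given. With the replicate block the members called numbered 2 (siRNAs in DMSO), 1 (siRNAs in 1-AKP), 3 (siRNAs averaged), 4 (1-AKP with negative siRNA), 3 (1-AKP with TUNAR siRNAs) and 5 (1-AKP averaged), against 0, 0, 0, 1, 1 and 1 without it, and RYR2 stood at 0.469, 0.513 and 0.491 in the siRNA comparisons. The 5 called by the block in 1-AKP averaged were ITPR3, ATP2A2, ATP2A3, STIM1 and ORAI3. ORAI3 was called there though it ranked 3975 by p among the 15990 genes tested, so calls were common among all genes in that fit. The share of all genes called is not given for the 1-AKP alternatives, so their member counts are no result about the members. In the 1-AKP comparisons the block is no part of the design: every library correlated best with its own number with negative siRNA, and replicates 2 and 3 did not with TUNAR siRNAs. A block within treatment called 2, 1 and 3 members in the siRNA comparisons, with RYR2 at 0.470, 0.515 and 0.492. DESeq2 called 1 in the averaged siRNA comparison, RYR2 at 0.491. With the length trend taken out, ITPR3 and ATP2A2, 2 members, were called in 1-AKP averaged, and with the block as well 1, 1 and 2 in the siRNA comparisons (RYR2 at 0.419, 0.458 and 0.438) and 5, 5 and 7 in 1-AKP. Taking the length trend out, without and with the block, turned the sign of uncalled members: ITPR1 (-0.0119 and -0.0120) and ATP2A2 (-0.00121 and -0.000889) for siRNAs in DMSO, ITPR2 (0.0688 and 0.0683) and STIM2 (0.0342 and 0.0337) for 1-AKP with negative siRNA, and ITPR2 (0.0619 and 0.0584) and ORAI1 (-0.0245 and -0.0240) for 1-AKP with TUNAR siRNAs. The cause was not tested.

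Leaving out replicates or single libraries, with or without the block, gave 0 to 1 members called for siRNAs in DMSO and in 1-AKP, 0 to 2 averaged, 0 to 3 and 0 to 4 for 1-AKP with negative and TUNAR siRNAs, and 1 to 5 averaged. RYR2 ranged from 0.346 to 0.653 (siRNAs in DMSO), 0.345 to 0.632 (in 1-AKP), 0.408 to 0.584 (averaged), -0.0842 to 0.250 and -0.00529 to 0.225 (1-AKP with negative and TUNAR siRNAs) and -0.139 to 0.211 (difference of siRNA effects). Uncalled members whose sign turned were ATP2A3 (-0.00623 to 0.0414) for siRNAs in DMSO; ITPR1 (-0.106 to 0.0412), ORAI1 (-0.0482 to 0.0659) and ORAI3 (-0.176 to 0.0205) for siRNAs in 1-AKP; ITPR2 (-0.0705 to 0.0110) and STIM2 (-0.0413 to 0.0443) for 1-AKP with negative siRNA; and ITPR1 (-0.0356 to 0.141), ITPR2 (-0.0714 to 0.0362) and ORAI1 (-0.0269 to 0.0494) for 1-AKP with TUNAR siRNAs. ITPR3 in 1-AKP stayed positive in every alternative run. RYR2, ORAI3 and ORAI1 rest on 212 to 571 expected counts per library; the part of counting noise in their spread was not tested.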
